A study of Mus musculus with 6 samples.

Results

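Sox9 encodes a transcription factor with an HMG-box DNA-binding domain. In the intestine it is made in the proliferating cells at the crypt base and in Paneth cells, and its transcription there depends on Wnt signalling through beta-catenin and TCF factors. The gene sits in a long interval almost empty of protein-coding genes, and remote enhancers in this interval drive Sox9 in cartilage, testis and other tissues. Sox17, named in the study's title, is another member of the same family.

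The peaks described here were chosen by position alone. They are the rows of the peak table that overlap chr11:110950000-113100000 of the mouse build mm9, a window of 2.15 Mb around Sox9. The gene was taken as about 112643000 to 112650000, transcribed towards higher coordinates. These ends are rounded, and distances are counted from them. The window held 55 of the 43020 listed peaks. Peaks within 5 kb of the gene formed the promoter class (3 peaks), and the others were upstream (10 peaks) or downstream (42 peaks). In the RefSeq annotation of another build, GRCm38.p6, used for the order of genes alone, Sox9 lies between Kcnj2, which encodes an inward rectifier potassium channel, and Slc39a11, which encodes a zinc transporter. Between Kcnj2 and Sox9 it lists 7 genes, of which 5 are lncRNAs and 1, the predicted gene Gm11677, is protein-coding. Between Sox9 and Slc39a11 it lists 9, all lncRNAs. The individual peaks were not placed in those genes.

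Accessibility was measured by ATAC-seq, in which the Tn5 transposase cuts and tags open chromatin, so that more reads over a region mean a more accessible region. Of the primary tumour group there were 3 libraries, from organoid lines grown out of colon tumours that had formed after AKP organoids were placed by colonoscopy in immunocompetent C57Bl6 mice. These lines were passaged several times until they held cancer cells alone. The naive group held 3 libraries of the AKP colon cancer organoids before transplantation. All 6 libraries carry the AKP genotype, an abbreviation that the labels do not spell out. The labels give each primary tumour library its own number but do not say that libraries of a group came from separate animals or cultures, so p-values measure the spread between these libraries. Effects of the stay in the mouse, of deriving the lines and of their passages cannot be told apart. RNA was not measured in these files, and the table names no genes, so markers of the cell type were not checked. A lower count in such bulk samples can come from fewer cells with an open site or from a less open site in each cell, which cannot be told apart.

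Total counts in peaks were 1916819 to 3594735 in the primary tumour libraries and 1185356 to 5987545 in the naive libraries, and no pair of the 6 libraries held identical counts. Counts were scaled to counts per 1e6 reads (CPM) in tested peaks. Each listed peak of the whole table that passed a filter on low counts was tested with edgeR's quasi-likelihood test, and an adjusted p under 0.05 made a call (Benjamini-Hochberg over all 36179 tested peaks). Fold changes are primary tumour minus naive on the log2 scale.

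The listed peaks around Sox9 lay mostly on its downstream side. The upstream side, 1688 kb long, held 0.592 listed peaks per 100 kb, and the downstream side, 445 kb long, held 9.44. The largest gap between neighbouring peaks was 658 kb, on the upstream side, and the median gap was 6.25 kb. The promoter-class peaks were separated from the nearest listed upstream peak by 165 kb, but from the nearest downstream peak by 17.9 kb. Of the CPM summed over the window's listed peaks, downstream peaks held 87.5 ± 1.46% in primary tumour lines and 86.0 ± 1.93% in naive organoids (SD, 3 libraries each). Upstream peaks held 7.87 ± 1.53% in primary tumour lines, against 10.3 ± 1.69% in naive organoids. Promoter-class peaks held 4.67 ± 0.220% of this sum in primary tumour lines, against 3.69 ± 0.241% in naive organoids. The authors' peak numbers ran from 16818 to 16914 across the window, which is 97 numbers for 55 listed peaks. The density is therefore that of the listed peaks, and no source used here gives the rule by which they were chosen.

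**Figure D1:**
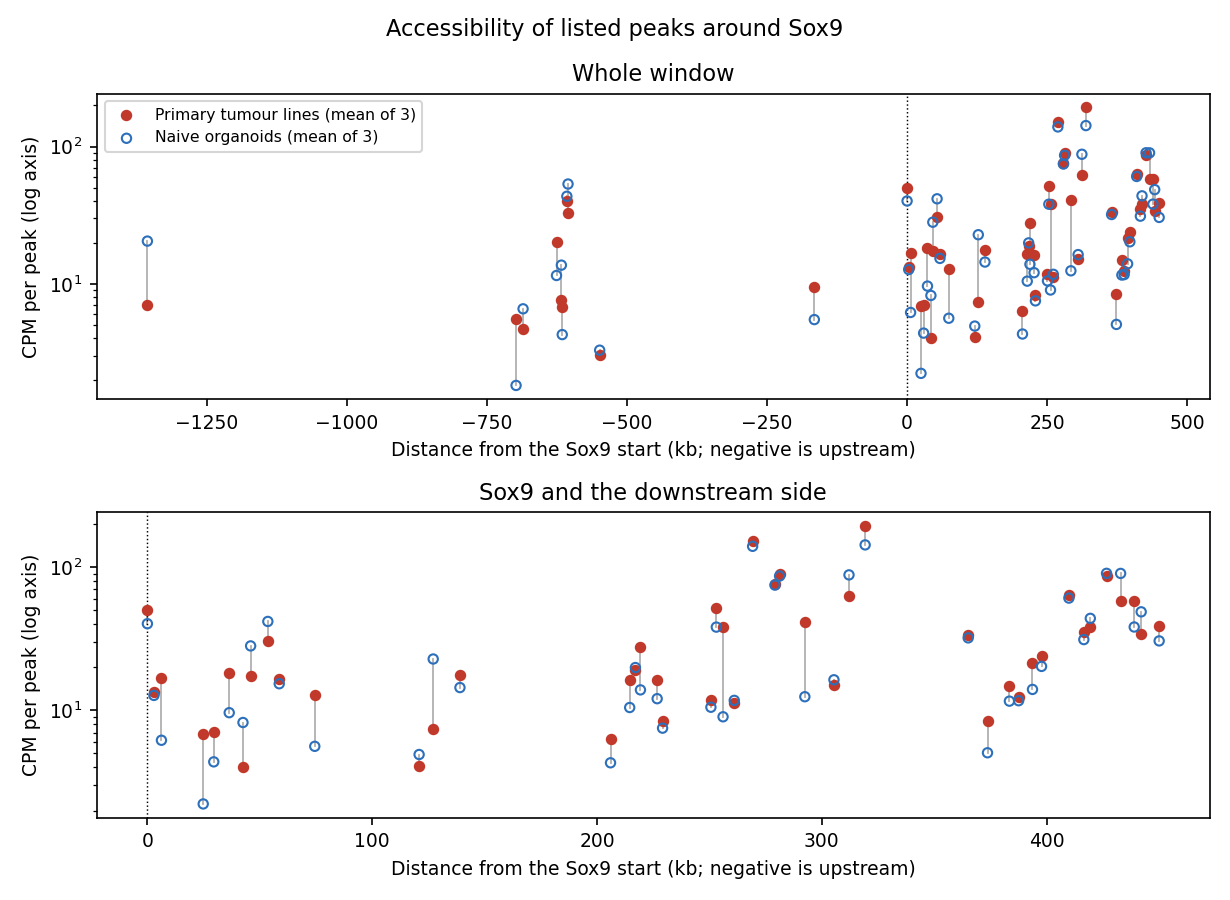
Mean CPM per peak (log axis) against distance from the Sox9 start in kb, for primary tumour lines (filled points) and naive organoids (open points), with a grey line joining the group means (n = 3 each) of each of the 55 listed peaks. The lower panel repeats the gene and its downstream side, where 42 peaks lie against 10 upstream, and where the strongest peaks of the window are found.

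The strongest peaks of the window lay downstream and were open in both groups. The peak at chr11:112962290-112965159, 319 kb from the Sox9 start, had 218, 187 and 175 CPM in primary tumour lines, against 126, 172 and 129 CPM in naive organoids. The groups did not overlap there, but the difference was small and did not pass the test (log2 fold change 0.43, SE 0.19, 95% interval 0.05 to 0.81, adjusted p = 0.124, edgeR). It was called with abundance-trended offsets (0.68, adjusted p = 0.00137, edgeR), with total-count scaling (0.49, adjusted p = 0.0335, edgeR) and without naive replicate 2 (0.60, adjusted p = 0.0470, edgeR). DESeq2 size factors (0.44) and an offset per library and chromosome (0.39) left it uncalled. So did the DESeq2 test (0.44), dropping the filter (0.42) and a filter of 20 counts in 3 libraries (0.47). It was also uncalled with a replicate block (0.44) and when any library but naive replicate 2 was left out (0.34 to 0.51). The peak at chr11:112912237-112914528 had 171, 129 and 154 CPM in primary tumour lines, against 143, 150 and 125 CPM in naive organoids, and the groups overlapped (log2 fold change 0.12, SE 0.18, adjusted p = 0.745, edgeR). These 2 peaks are also wide, at 2869 and 2291 bp. Of the CPM summed over the window's listed peaks, they together held 20.01 ± 1.15% in primary tumour lines and 17.5 ± 1.15% in naive organoids (SD, 3 libraries each).

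Per kilobase of peak the order differed. The highest read density, averaged over the 6 libraries, was 120 CPM per kb at chr11:112922164-112922791, followed by 112 CPM per kb at chr11:112924228-112925015, 279 and 281 kb from the Sox9 start. Both had nearly the same level in the groups. The second of them had 83.6, 102 and 83.0 CPM in primary tumour lines, against 81.5, 95.4 and 82.4 CPM in naive organoids (log2 fold change 0.04, SE 0.20, 95% interval -0.37 to 0.45), with a sign that turned in some settings. The peak at chr11:112955111-112956023 had 66.2, 72.5 and 49.3 CPM in primary tumour lines, all below the 86.7, 99.8 and 77.7 CPM in naive organoids, and did not pass the test (log2 fold change -0.50, SE 0.21, adjusted p = 0.124, edgeR). Also among the 5 strongest by mean CPM, chr11:113069680-113071145 had 105, 78.3 and 76.4 CPM in primary tumour lines, against 80.6, 102 and 88.4 CPM in naive organoids, with overlapping groups.

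At the Sox9 start itself, no change was called. The peak that spans it, chr11:112642543-112644375, is 1832 bp wide and was counted with 181, 89 and 109 reads in primary tumour lines and 41, 244 and 95 reads in naive organoids. After scaling it had 51.6, 47.1 and 51.7 CPM in primary tumour lines, against 35.2, 44.8 and 40.6 CPM in naive organoids. The 3 primary tumour libraries were all higher, by a margin of little more than 2 CPM between the nearest libraries. Primary tumour lines averaged 50.1 ± 2.64 CPM and naive organoids 40.2 ± 4.84 CPM (SD, 3 libraries each). The difference was 0.30 on the log2 scale (SE 0.23, adjusted p = 0.442, edgeR). Its 95% interval, -0.18 to 0.78, does not reach a doubling, but does not show that the groups are alike.

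The 2 other promoter-class peaks lie in the interval taken as the gene, whose ends are rounded. The peak at chr11:112645903-112646656, 2.90 kb from the start, had 14.8, 14.3 and 10.9 CPM in primary tumour lines, against 14.6, 10.3 and 13.2 CPM in naive organoids. The groups overlapped (log2 fold change 0.10, SE 0.40, 95% interval -0.71 to 0.92), and the sign turned without naive replicate 2 (-0.05).

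The third promoter-class peak, chr11:112649246-112649956, lies 6.25 kb from the start and is no part of the promoter proper. It is at the far end of the interval taken as the gene, so whether it lies inside the gene or just past it is not settled here. It rose in primary tumour lines. It had 17.4, 21.2 and 11.9 CPM there, from 61, 40 and 25 reads, against 6.86, 6.98 and 4.70 CPM in naive organoids, from 8, 38 and 11 reads. The groups did not overlap. The log2 fold change was 1.43 (SE 0.44, 2.70-fold, adjusted p = 0.0273, edgeR). The call was lost without primary tumour replicate 2 (log2 fold change 1.24, adjusted p = 0.122, edgeR), without naive replicate 2 (1.58, adjusted p = 0.0812, edgeR) and without naive replicate 3 (1.26, adjusted p = 0.113, edgeR). These 3 fits also called fewer peaks over the whole table, 3745, 2215 and 3887 against 5210 with all libraries. Loss of the call therefore does not show that it rested on 1 library.

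Of the 55 peaks, 51 passed the filter and were tested. In primary tumour lines 4 of them (7.84%) rose and 2 (3.92%) fell. Over all tested peaks listed, 8.00% rose and 6.40% fell, 14.4% in all, so the shares in the window were near or below the background. Another 45 peaks were not called, with log2 fold changes between -0.95 and 1.18, of which 28 were smaller than 0.5 in size. The 95% intervals of single peaks not called reached as low as -2.11 and as high as 2.52. For some of these peaks a large change is therefore not excluded. At an unadjusted p under 0.05, 13 of 51 peaks would be counted (edgeR), against 27.4% of all tested peaks.

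**Figure D2:**
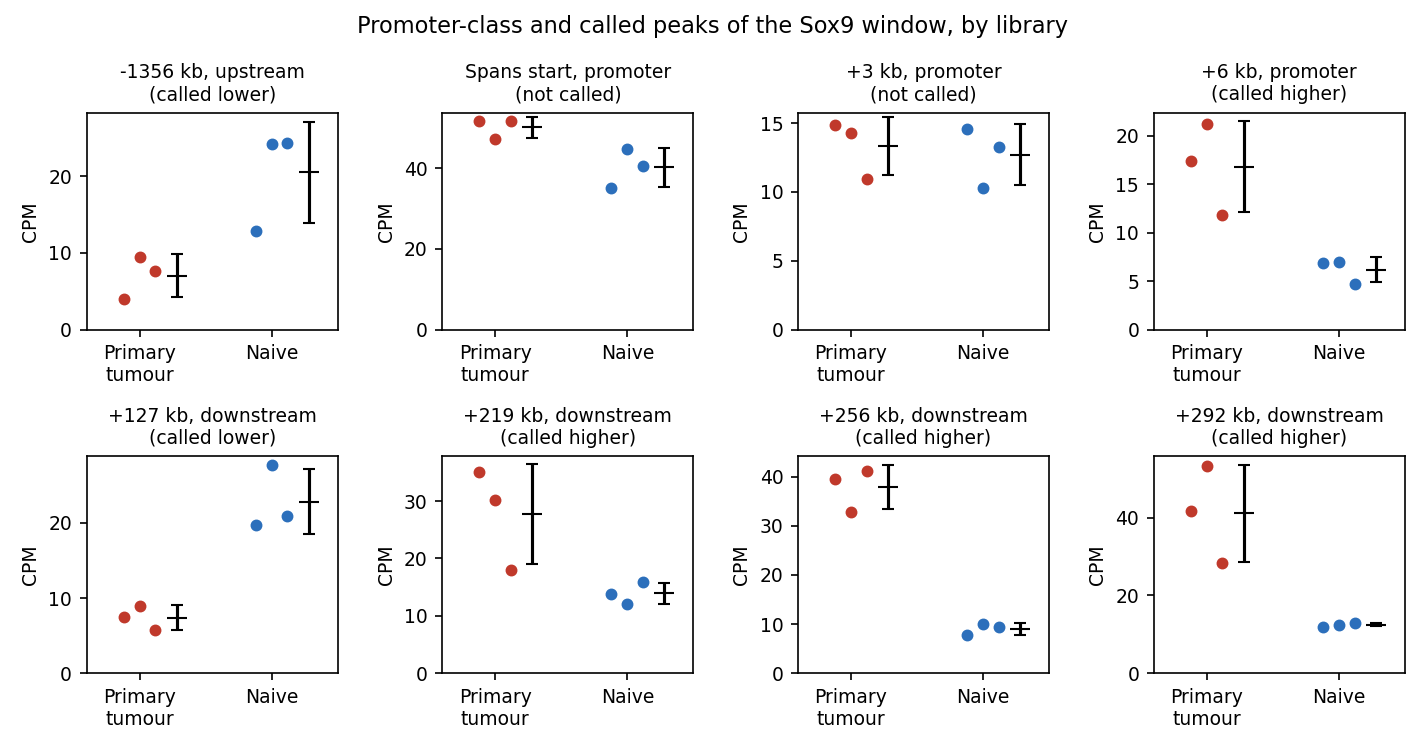
CPM in each library for the 3 promoter-class peaks and the 5 other called peaks, with primary tumour lines on the left of each panel and naive organoids on the right; black bars give the mean and SD of 3 libraries, and panel titles give the distance from the Sox9 start. The groups do not overlap at any called peak, while at the peak that spans the start the primary tumour libraries lie at 47.1 to 51.7 CPM and the naive libraries at 35.2 to 44.8 CPM.

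The 2 largest gains lay downstream of Sox9, near the strongest peaks of the window. At chr11:112899080-112900507, 256 kb from the start, primary tumour lines had 39.6, 32.8 and 41.3 CPM from 139, 62 and 87 reads. Naive organoids had 7.72, 9.92 and 9.40 CPM from 9, 54 and 22 reads. Replicates were close within each group and the groups were far apart, with means of 37.9 ± 4.49 CPM in the tumour-derived lines and 9.01 ± 1.15 CPM before transplantation (SD, 3 libraries each). The log2 fold change was 2.04 (SE 0.32, 4.10-fold, adjusted p = 0.000113, edgeR).

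At chr11:112935467-112936213, 292 kb from the start, primary tumour lines had 41.6, 53.4 and 28.5 CPM from 146, 101 and 60 reads. Naive organoids had 12.01, 12.5 and 12.8 CPM from 14, 68 and 30 reads. The naive libraries were almost level and the primary tumour libraries spread widely, yet the lowest of these was more than double the highest naive value. The log2 fold change was 1.72 (SE 0.31, 3.29-fold, adjusted p = 0.000523, edgeR). Both gains were called in all 14 alternative fits tested against no change, with log2 fold changes of 1.95 to 2.12 for the first and 1.49 to 1.93 for the second. Tested against a fold change of 2, the first was called (adjusted p = 0.0233, edgeR) and the second was not (adjusted p = 0.109, edgeR).

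These 2 peaks lie 34.96 kb apart and the gain did not extend over the stretch between them. The 4 tested peaks in that gap, which include the strong peaks at 269, 279 and 281 kb, had log2 fold changes from -0.06 to 0.12. The nearest peak on the Sox9 side, chr11:112896086-112896861, had 77.9, 50.3 and 26.1 CPM in primary tumour lines, against 34.3, 32.9 and 46.98 CPM in naive organoids, with overlapping groups.

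A weaker gain was called at chr11:112862331-112863072, 219 kb from the start. Primary tumour lines had 35.1, 30.2 and 18.0 CPM and naive organoids 13.7, 12.1 and 15.8 CPM. The highest naive library came close to the lowest primary tumour library. The log2 fold change was 1.02 (SE 0.34, adjusted p = 0.0463, edgeR), just inside the threshold, and the call was lost when any library but primary tumour replicate 3 was left out (log2 fold change 0.81 to 1.11, adjusted p = 0.0842 to 0.209, edgeR). Just outside the threshold lay chr11:113075940-113076963, with 63.9, 43.9 and 66.4 CPM in primary tumour lines against 98.7, 95.4 and 76.4 CPM in naive organoids (log2 fold change -0.62, adjusted p = 0.0536, edgeR). With an offset per library and chromosome it was called lower (-0.67, adjusted p = 0.0333, edgeR). It was singled out after its value was seen.

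Accessibility fell at a downstream peak and at the peak farthest upstream. The downstream peak, chr11:112770141-112770679, 127 kb from the start, had 7.42, 8.996 and 5.69 CPM in primary tumour lines, against 19.7, 27.7 and 20.9 CPM in naive organoids. No library of one group came near the other group. The log2 fold change was -1.65 (SE 0.39, 3.13-fold lower, adjusted p = 0.00507, edgeR), and without naive replicate 2 it was -1.46 and not called (adjusted p = 0.0618, edgeR).

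The far upstream peak, chr11:111285976-111286552, lies alone among the listed peaks 1356 kb before Sox9, nearer to the Kcnj2 end of the window than to Sox9. It had 3.99, 9.53 and 7.59 CPM in primary tumour lines, against 12.9, 24.3 and 24.3 CPM in naive organoids. Naive replicate 1, the shallowest library with 15 reads here, was the lowest naive library. The log2 fold change was -1.62 (SE 0.43, 3.06-fold lower, adjusted p = 0.0119, edgeR), and the call was lost without naive replicate 2 (-1.48, adjusted p = 0.0929, edgeR) and without naive replicate 3 (-1.50, adjusted p = 0.0578, edgeR).

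**Figure D3:**
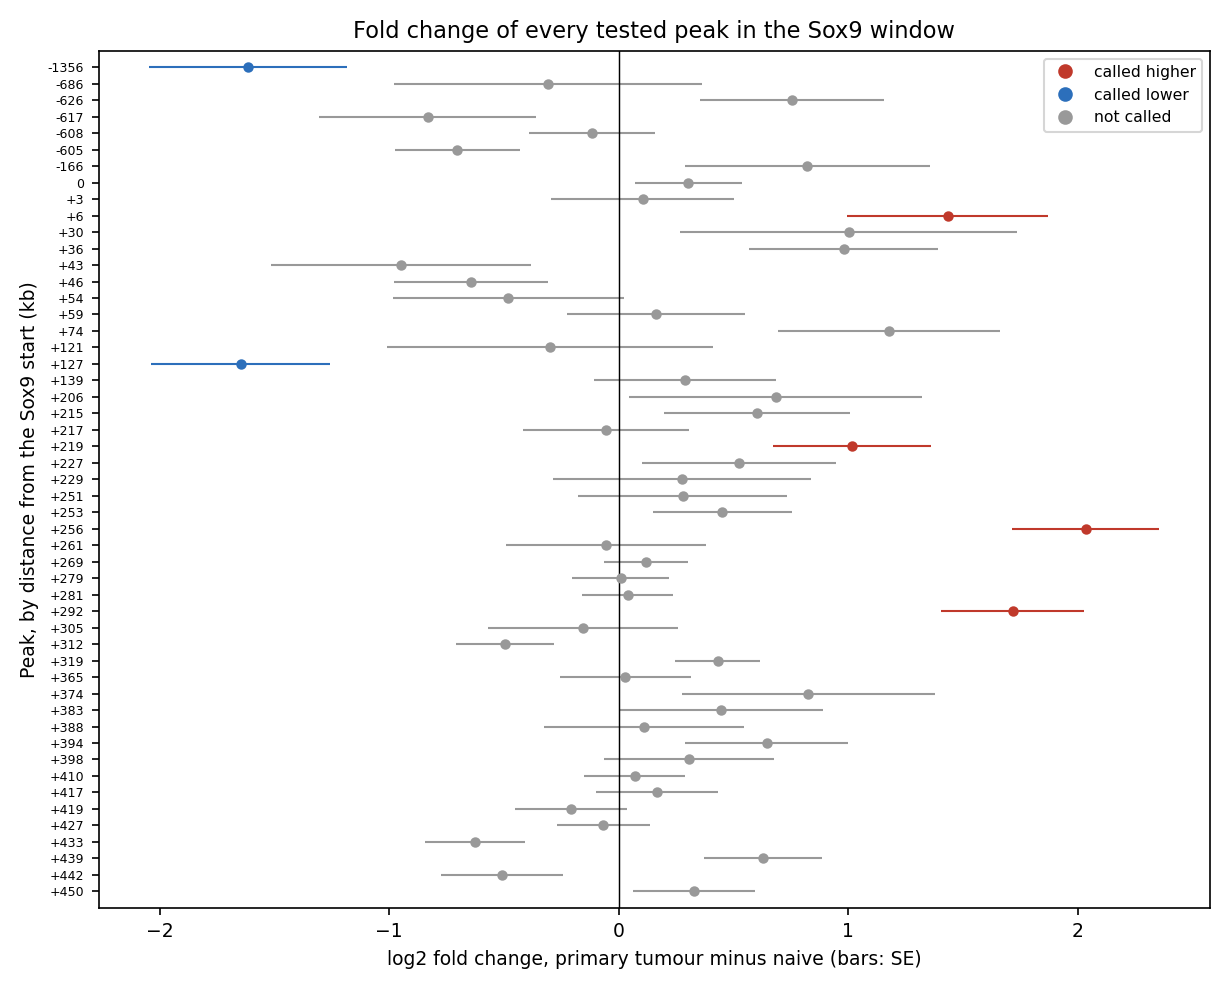
Log2 fold change (primary tumour minus naive, bars are the SE) of the 51 tested peaks, ordered from far upstream at the top to far downstream at the bottom, with the distance from the Sox9 start in kb. Red marks the 4 peaks called higher, blue the 2 called lower and grey the 45 not called; the largest gains stand at 256 and 292 kb.

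The other upstream peaks were not called, and the primary tumour lines differed among themselves there. A group of 5 listed peaks spans 21.4 kb between 626 and 605 kb before Sox9. Its strongest member by read density, chr11:112034755-112035478, had 49.1, 47.6 and 23.7 CPM in primary tumour lines, against 36.9, 40.6 and 53.0 CPM in naive organoids. Its neighbour, chr11:112036487-112037590, had 41.1, 38.6 and 18.0 CPM in primary tumour lines, all below the 52.3, 53.3 and 54.7 CPM in naive organoids (log2 fold change -0.70, SE 0.27, adjusted p = 0.0842, edgeR). At both, primary tumour replicate 3 was the lowest of the 6 libraries. It was not so at the other peaks of the group. At chr11:112024840-112025720 primary tumour lines had 4.28, 6.35 and 12.3 CPM, against 16.3, 10.7 and 14.1 CPM in naive organoids. At chr11:112026696-112027262, which did not pass the filter, primary tumour replicate 3 was the highest of the 6 libraries, with 2.85, 7.41 and 9.96 CPM in primary tumour lines, against 4.29, 4.23 and 4.27 CPM in naive organoids. At chr11:112016211-112017015 all 3 lines lay above naive replicate 3, with 30.5, 16.4 and 13.3 CPM in primary tumour lines, against 6.86, 15.2 and 12.4 CPM in naive organoids. Without primary tumour replicate 1 the neighbour was called lower (log2 fold change -0.92, adjusted p = 0.0301, edgeR).

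The listed upstream peak nearest to Sox9, chr11:112476859-112477380, had 12.5, 11.6 and 4.27 CPM in primary tumour lines, against 5.15, 4.04 and 7.26 CPM in naive organoids. Here primary tumour replicate 3 stood within the naive range and the other lines lay above it (log2 fold change 0.82, SE 0.53, adjusted p = 0.346, edgeR).

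The 4 peaks that did not pass the filter had few reads. At chr11:111944458-111944818 primary tumour replicates 1 to 3 had 53, 0 and 3 reads, while the naive libraries had 2, 11 and 4. That is 15.1 CPM in primary tumour replicate 1, against 1.71 to 2.02 CPM in naive organoids, so the signal came from 1 line. The 0 in primary tumour replicate 2 allows up to 1.59 CPM (3 counts, counting error only). The downstream peak nearest to Sox9, chr11:112667829-112668270, had 10, 19 and 16 reads (2.85, 10.1 and 7.59 CPM) in primary tumour lines, against 0, 27 and 4 reads (0, 4.96 and 1.71 CPM) in naive organoids. The 0 in naive replicate 1 allows up to 2.57 CPM. The other 2 lay upstream and had between 2 and 23 reads per library. Without a filter 0 of the 4 were called by edgeR (adjusted p = 0.265 to 0.987), and 0 had an unadjusted p under 0.05.

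Among the 51 tested peaks, the primary tumour group lay wholly above the naive group at 10 (19.6%) and wholly below it at 6 (11.8%), against 15.5% and 15.3% of all tested peaks. The fold change was above 0 at 33 of 51 (64.7%), against 49.7% of all tested peaks. The median log2 fold change of the window was 0.16, beside -0.01 for all tested peaks and 0.03 for the rest of chromosome 11. This upward shift was not limited to the window. In the stretch of equal width after it, on the Slc39a11 side, 52 tested peaks had a median of 0.37 and 38 lay above 0, while in the stretch of equal width before it 48 tested peaks had a median of 0.01 and 24 lay above 0. These medians are descriptions without a test, and whether a shift shared by a longer segment plays a part in the window's median was not tested.

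By library, the window's median of log2(CPM + 1) relative to the naive mean was 0.22, 0.17 and 0.19 in primary tumour replicates 1 to 3, while the naive libraries had 0.04, 0.02 and -0.03. The promoter class had 0.36, 0.23 and 0.36 in the 3 lines, against 0.15, 0.16 and 0.02 in the naive libraries. The downstream side had 0.22, 0.20 and 0.22 in the lines, against 0.04, 0.06 and -0.10 in the naive libraries. The upstream side was not above 0 in all 3 lines. It had 0.19 in primary tumour replicate 1 against -0.46 and -0.58 in replicates 2 and 3, over 7 tested peaks. Downstream peaks were further split at 150 and 350 kb from the end of the gene, a choice made after the counts were seen. Under 150 kb the medians were -0.295, 0.08 and 0.33 in the 3 lines, within the naive range of -0.43 to 0.38. Of the 17 peaks between 150 and 350 kb 3 rose, of the 10 tested nearer peaks 1 fell, and of the 14 farther peaks 0 were called with TMM scaling in edgeR or by DESeq2, with 2 at an unadjusted p under 0.05 in edgeR. That is 17.6% higher between 150 and 350 kb and 10% lower nearer to the gene, beside 8.00% higher and 6.40% lower over all tested peaks. With so few peaks per segment, and bounds set after the counts were seen, these counts cannot show a difference from those shares. Among the farther peaks, other scalings in edgeR called chr11:113081991-113083070 higher (trended offsets, log2 fold change 0.74, adjusted p = 0.0374) and chr11:113075940-113076963 lower, as given above. The first of these, also named after its value was seen, had 77.3, 47.6 and 49.3 CPM in primary tumour lines, against 44.6, 41.2 and 28.6 CPM in naive organoids.

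**Figure D4:**
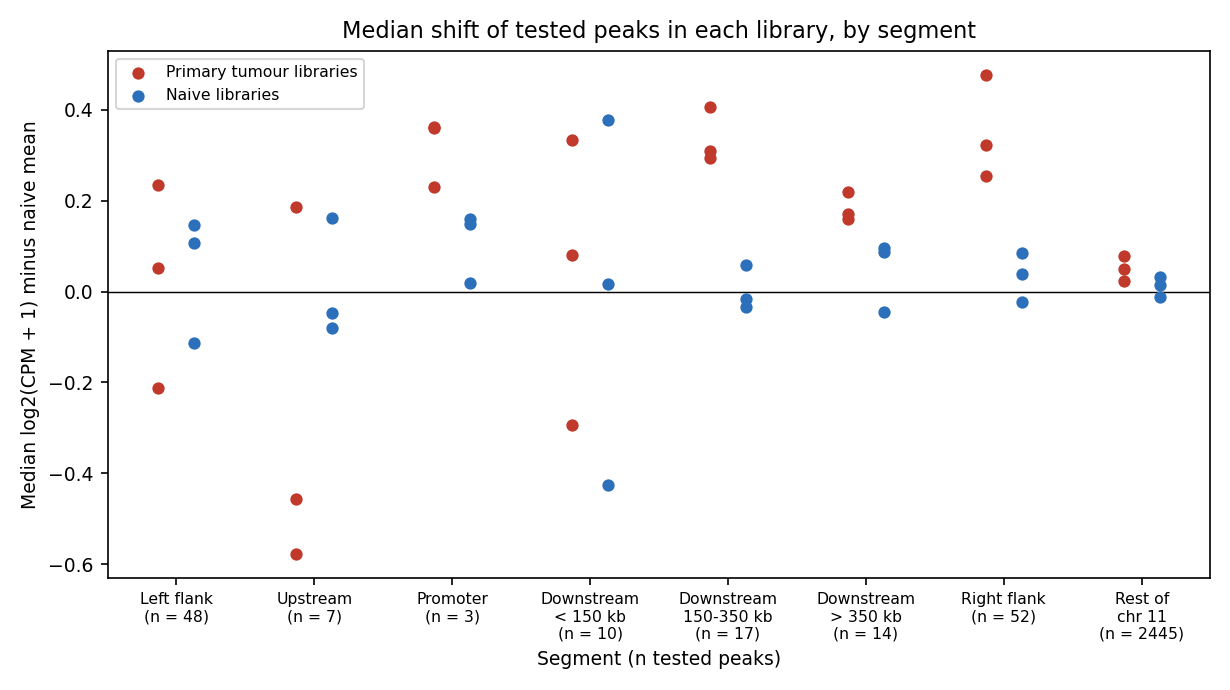
Shift of log2(CPM + 1) from the naive mean, as the median of the tested peaks, for each primary tumour library (red) and each naive library (blue), by segment from the left flank across the Sox9 window to the right flank and the rest of chromosome 11; the number of tested peaks is under each label. All primary tumour points lie above all naive points in the promoter class, in the downstream segments from 150 to 350 kb and over 350 kb, and in the right flank; in the other 4 segments the groups overlap.

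The summed signal of the 3 promoter-class peaks was 83.9, 82.6 and 74.5 CPM in primary tumour lines, against 56.6, 62.1 and 58.5 CPM in naive organoids, a ratio of 1.36 between the means. The upstream sum was 173, 139 and 98.2 CPM in primary tumour lines, against 150, 161 and 181 CPM in naive organoids, a ratio of 0.835. Downstream it was 1630, 1469 and 1413 CPM in primary tumour lines, against 1417, 1491 and 1239 CPM in naive organoids, a ratio of 1.09. The promoter-class sums therefore did not overlap, and the other sums did. Among its 3 members, the called peak 6.25 kb from the start averaged 6.18 CPM before transplantation and 16.8 CPM in the tumour-derived lines. For the start peak, which was not called, these means were 40.2 and 50.1 CPM. For the middle peak they were 12.7 and 13.3 CPM. The ratio of 1.36 thus describes the class and not the Sox9 start alone.

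Spread among libraries of a group was also described, with no test. Over the 51 tested peaks the median SD of log2(CPM + 1) was 0.446 among primary tumour lines and 0.289 among naive libraries. Over all tested peaks it was 0.359 among primary tumour lines and 0.347 among naive libraries. Primary tumour replicate 1 was the highest of the 6 libraries at 17 of the 51 peaks (33.3%), against 18.4% of all tested peaks. It lay above the naive range at 24 peaks (47.1%, against 32.1% of all tested peaks) and below it at 10 (19.6%, against 31.9%). Replicate 2 lay above the naive range at 18 peaks (35.3%, against 31.8%) and below it at 14 (27.5%, against 32.4%). Replicate 3 lay above it at 19 peaks (37.3%, against 31.4%) and below it at 14 (27.5%, against 31.6%).

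The peaks whose pattern over the 6 libraries was most like that of the Sox9 start peak were downstream, as were 41 of the 51 tested peaks. Likeness was the root mean square difference between log2(CPM + 1) profiles, each centred on its own mean. Counting error adds to this difference, more so at peaks with few reads, and peaks that barely change score as alike. A small difference therefore does not by itself show a shared pattern. The smallest difference, 0.138, belonged to the strongest peak of the window, chr11:112962290-112965159. It was followed by chr11:113059575-113060366 at 0.171 and chr11:112912237-112914528 at 0.176. The called peaks at 256 and 292 kb were less alike, at 0.823 and 0.713, since they moved far more than the start peak did.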

How the data were processed

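The values are raw read counts in 1 peak table that the authors deposited for the 6 libraries. Per the labels' protocols, 50000 dissociated cells per library were treated with transposase for 30 min at 37 °C, and sequencing was paired-end with 75-base reads. The submitters' processing notes name Bowtie, Picard, SAMtools, MACS2 and bedtools, without versions or roles, and the build mm9. Per the row names of the file, 1 peak set over all samples was counted in every library. The shift of read ends for the transposase, the treatment of duplicates and the base from which starts are counted are given in no source used here. Duplicates left in would inflate counts. Coordinates are printed as the table gives them.

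Libraries were assigned to groups by their titles. The analysis used edgeR 4.0.16 and limma 3.58.1 (R 4.3.3): filterByExpr at its defaults (36179 of 43020 peaks kept), TMM scaling, robust quasi-likelihood F test (2-sided, a model with group alone) and Benjamini-Hochberg adjusted p-values across every tested peak. CPM is relative to the reads in tested peaks after TMM. SEs were derived from fold changes and F statistics, and 95% intervals from the same fit. The precision follows the counts, which are given for the main peaks, and limits from a count of 0 cover counting error only. The procedure was tested on simulated data.

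The peaks, the rule for naming them (promoter class, called peaks, the 5 strongest, the nearest on each side and the 3 most like the start peak) and the alternatives were chosen with earlier results of these data known. Alternatives were scaling by total count, by DESeq2 size factors, by trended offsets (loess, span 0.3) or by an offset per library and chromosome, testing with DESeq2 1.42.0 (Wald), dropping the filter or asking for 20 counts in 3 libraries, a replicate block, each library left out, a threshold of 0.10, a test against a fold change of 2, full inclusion in the window, and a promoter class of 10 kb. A promoter sequence of Sox9 is not shown.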

Additional observations from a re-analysis of the deposited data

How the results depend on the processing

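Of the 6 called peaks, those 256 and 292 kb from the Sox9 start were called in every one of 14 fits tested against no change. No called peak changed sign in a fit that tested it. With 4 peaks higher and 2 lower in the fit as reported, the test against a fold change of 2 called 1 higher and 0 lower, being the stricter test by its construction, and the threshold of 0.10 called 4 lower. Trended offsets called 6 higher, adding the peaks at 112962290 and 113081991, total-count scaling called 5 higher, and an offset per library and chromosome called 3 higher and 3 lower. The filter of 20 counts in 3 libraries called 1 lower among fewer tested peaks. Over the whole table the alternative scalings called 4907 to 5340 peaks and this filter 4659, against 5210 in the fit as reported. Leaving out 1 library gave 2 to 4 higher and 0 to 3 lower in the window, and 2215 to 5440 calls over the whole table. The 0 lower came without naive replicate 2, the fit with the fewest calls over the whole table. The cause was not tested. The gain 219 kb from the start was also not called without a filter (log2 fold change 1.01, adjusted p = 0.0507) or with an offset per library and chromosome (0.97, adjusted p = 0.0527, both edgeR). With the replicate block it had 0.956 and was not called (adjusted p = 0.1235, edgeR). Of the 14 alternative fits, 6 called this gain and 8 did not.

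The fit with the replicate number as a block called 2 peaks higher and 2 lower in the window. Over the whole table it called 3539 peaks, against 5210 in the fit as reported. In it the peak at the far end of Sox9 kept a log2 fold change of 1.43 but was not called (adjusted p = 0.0609, edgeR). Same-numbered libraries had correlations of -0.239, -0.107 and 0.00475 in their deviations from the group means, and in no case was the same-numbered library the best match, so the numbers were not taken to pair the libraries.

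The window's median log2 fold change, 0.16, was 0.22 with total-count scaling, 0.20 with trended offsets, 0.12 with an offset per library and chromosome, 0.19 with the filter of 20 counts, and 0.14 to 0.26 with 1 library left out. Leaving out 1 library gave log2 fold changes of 1.24 to 1.64 at the peak at the far end of Sox9 and -0.049 to 0.24 at the middle promoter-class peak. The peak at 112924228 had -0.0037 with an offset per library and chromosome and -0.066 to 0.12 with 1 library left out. The peak at 113069680 had 0.11 with trended offsets and -0.23 to 0.034 with 1 library left out. The sum ratios of the 3 classes moved by less than the spread between libraries in every setting run, and a promoter class of 10 kb or full inclusion in the window changed no count.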

Other observations

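The nearest listed peaks outside the window were read as well, without a part in the counts above. Just after the window, on the Slc39a11 side, chr11:113107813-113108182 rose in primary tumour lines, with 16.5, 16.9 and 6.17 CPM there and 4.29, 3.12 and 4.70 CPM in naive organoids (log2 fold change 1.75, adjusted p = 0.0250, edgeR). The next peak, chr11:113114446-113114902, had 27.1, 13.8 and 11.4 CPM in primary tumour lines and 18.9, 21.5 and 10.2 CPM in naive organoids, with overlapping groups. Just before the window, on the Kcnj2 side, chr11:110927007-110927690 had 5.42, 13.8 and 9.96 CPM in primary tumour lines and 34.3, 20.03 and 11.96 CPM in naive organoids, with overlapping groups and no call (log2 fold change -1.18, adjusted p = 0.0737, edgeR). Farther on that side, chr11:110405713-110406309 had 7.70, 6.88 and 8.54 CPM in primary tumour lines, all below the 13.7, 20.8 and 14.9 CPM in naive organoids, and was not called either (log2 fold change -1.12, adjusted p = 0.0680, edgeR). With the gain just past its end, the count of peaks that rose near Sox9 depends on where the window ends.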
